A study of Mus musculus with 7 samples.

Results

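The kinesin superfamily was taken as the symbols of the count tables that start with Kif followed by a digit, together with Kifc1, Kifc2 and Kifc3 and without Kif3a, Kif3b and Kif17. This gave 38 genes of the 32531 listed. All libraries came from adult mice of the Dcdc2a-EGFP/Rpl10a line ES2575, in which a transgene driven by Dcdc2a puts EGFP on the ribosomal protein Rpl10a, so the tag marks the ribosomes of cells that use this promoter. Tagged polysomes pulled from tissue around the brain ventricles with antibodies to EGFP gave 3 libraries of ribosome-bound RNA (IP 1, IP 3 and IP 4, by the labels' replicate numbers). Total RNA gave 4 libraries (Inputs 1 to 4). IP and Input mice carried the same transgene, and the number of animals behind each library, their exact age and any pooling are not stated by the labels.

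Kinesins are motors that turn ATP into movement along microtubules, most of them towards the plus end. Some carry vesicles and organelles along axons and dendrites, some build and drive the mitotic spindle, and some work in cilia, where they carry cargo, set the length of the axoneme or help it to beat. Ependymal cells line the ventricles, do not divide in the adult, and each carries a tuft of motile cilia that moves the cerebrospinal fluid. The 38 genes were therefore described by role: 4 of motile cilia, 2 of the primary cilium and centriole, 15 of neuronal and organelle transport, 12 of mitosis and 5 others.

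Sequences before the start sites of Kif9, Kif6 and Kif27, motors of motile cilia, are shown. These genes were high in IP 3 and IP 4, while in IP 1 Kif6 lay within the Inputs. Kif19a and Kif11 were high in IP 3 and IP 4 too, and their sequences are not shown. Each run is the 120 bases from 140 to 21 before a RefSeq start site (GRCm38.p6), 5′ to 3′ on the gene's strand. Capitals mark GTTGCC, an arm of the X-box, the element that RFX transcription factors of ciliated cells bind.
Kif9 (chr9:110476854-110476973, plus strand): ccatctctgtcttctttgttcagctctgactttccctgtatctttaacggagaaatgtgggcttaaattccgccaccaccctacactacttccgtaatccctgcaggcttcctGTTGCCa
Kif6 (chr17:49615032-49615151, plus strand): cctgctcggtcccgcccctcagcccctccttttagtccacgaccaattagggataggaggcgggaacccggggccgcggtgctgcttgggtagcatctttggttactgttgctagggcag
Kif27 (chr13:58354968-58355087, minus strand): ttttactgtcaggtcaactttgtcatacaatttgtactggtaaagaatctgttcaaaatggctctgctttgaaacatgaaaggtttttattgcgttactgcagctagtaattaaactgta

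Of these runs, only that of Kif9 held the X-box arm, and this rests on the start site shown. Kif9 has another RefSeq start upstream. Seen from it, the same GTTGCC lies at position 9, after the start, so the run of that start holds no arm. Windows of 300 bases (250 before and 50 after a start) were found for 29 of the 38 members, 33 windows in all. The arm (GTTGCC or, on the other strand, GGCAAC) stood in 9 of the 33 windows, from 8 genes, and in 12.5% of all 32851 windows. Kif9 was the only motile cilium gene among them, and its site was counted in both of its overlapping windows. The others were the transport genes Kif1a, Kif2a, Kif3c and Kif16b, the mitotic Kif18a and Kif23, and Kif24. The whole X-box, searched as GTTNCC and GGNAAC with 0 to 3 bases between, stood in 0 of the 33 windows and in 0.804% of all. The forkhead core (TGTTTAC or GTAAACA) stood in 0 of the 33 and in 3.65% of all. These are matches of letters and show no binding. The RefSeq start of Kif27 lies inside its GENCODE M21 gene model.

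In the IP, 3 of 4 motile cilium kinesins (Kif9, Kif19a and Kif27) and 1 of 15 transport kinesins (Kif21b) were higher than in Input. These 4 calls, and 0 lower calls, came from 33 members with enough counts to test, by quasi-likelihood tests in edgeR with p adjusted (Benjamini-Hochberg) over 17375 genes at 0.05. They were 12.1% of the tested members, where 3.64% of all tested genes were called higher and 2.16% lower. With unadjusted p the same threshold gave 10 members higher, where 13.3% of all genes were, and 2 lower (Kif3c and Kif15), where 9.4% were. DESeq2 called 8 members higher and 1 lower (Kif15), where it called 8.71% of all genes higher and 6.34% lower, and limma-voom called 1 higher (Kif9) and 0 lower. Every IP lay above every Input in 7 members (21.2%, against 9.55% of all tested genes) and below every Input in 2 (6.06%, against 10.4%). The median log2 fold, IP over Input, was 0.66 over the tested members and 0.06 over all tested genes. Without IP 1 these medians were 0.11 and -0.04, so most of the family's shift rested on that library.

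IP 1 stood apart from the other IP libraries. Dcdc2a, which drives the tag, had 43.6, 411 and 175 CPM (counts per 1000000, on edgeR's TMM scale) in IP 1, IP 3 and IP 4, against 27.7 to 73.9 CPM in the Inputs. The summed level of 8 ependymal markers was 228, 3064 and 2715 CPM in IP 1, IP 3 and IP 4, against 74.2 to 104 CPM in the Inputs, with none of the 8 at 0 in any library. Counts in genes ran from 42422439 to 52175180 in IP and from 37203427 to 44754345 in Input, and IP 1 was the deepest library. Without IP 1, 7 kinesins were higher (21.2%, against 12.5% of all genes) and 5 were lower (15.2%, against 9.55%). With the replicate number as a block, 0 kinesins were called, where 0.553% of all genes were higher and 0.19% lower. Without IP 4 or any 1 Input 0 kinesins were called either, and over all genes at most 21 were higher and at most 30 lower. In bulk RNA, fewer cells of a type and less RNA per cell cannot be told apart, and neither can ribosome loading and abundance in a comparison of IP with total RNA.

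Kif9, a motor of the axoneme that mouse sperm need for normal swimming, had the smallest p of the family. It had 24.8, 57.3 and 49.9 CPM in IP 1, IP 3 and IP 4, against 8.29, 4.54, 4.10 and 9.95 CPM in Inputs 1 to 4. Every IP was above every Input, and IP 1 was the lowest of the IP libraries. The log2 fold was 2.71 ± 0.42 (SE; adjusted p = 0.0129 in edgeR). It was 2.99 ± 0.35 without IP 1 (SE; adjusted p = 2.62e-05 in edgeR). The replicate block gave 2.56 and ended the call (adjusted p = 0.0787 in edgeR), as did leaving out IP 4 or any 1 Input (adjusted p = 0.0513 to 0.0584 in edgeR). Kif9 (ENSMUSG00000032489.17, GRCm38 chromosome 9, 110476958 to 110525179, plus strand) shares no exon base with another GENCODE gene.

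Kif19a, which shortens microtubules at the tips of motile cilia and so limits their length in the mouse, had the largest fold of the family. It had 4.45, 33.3 and 20.3 CPM in IP 1, IP 3 and IP 4, against 0.932, 0.671, 0.355 and 3.61 CPM in Inputs 1 to 4. The groups did not overlap, although IP 1 was close to Input 4. The log2 fold was 3.79 ± 0.88 (SE; adjusted p = 0.0382 in edgeR). Without IP 1 it was 4.26 (adjusted p = 0.000927 in edgeR), and the block gave 3.53 and ended the call (adjusted p = 0.157 in edgeR). Leaving out IP 3, IP 4 or any 1 Input also ended it (adjusted p = 0.0513 to 0.114 in edgeR), and the log2 fold was 3.15 without IP 3 and 4.88 without Input 4. Kif19a (ENSMUSG00000010021.13, chromosome 11, 114765388 to 114790739, plus strand) shares no exon base with another gene.

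Kif27 is a relative of Kif7 and binds the kinase Stk36, which in the mouse helps to build the central pair of motile cilia. Kif27 had 15.2, 58.2 and 31.1 CPM in IP 1, IP 3 and IP 4, against 10.1, 6.35, 5.57 and 12.9 CPM in Inputs 1 to 4. All IP libraries were above all Inputs, with IP 1 just above Input 4. The log2 fold was 1.99 ± 0.47 (SE; adjusted p = 0.0382 in edgeR). Without IP 1 it was 2.35 (adjusted p = 0.000338 in edgeR), and the block gave 1.71 and ended the call (adjusted p = 0.224 in edgeR). The call was also lost without IP 3, IP 4 or any 1 Input (adjusted p = 0.0785 to 0.12 in edgeR), and the log2 fold was 1.40 without IP 3. Kif27 (ENSMUSG00000060176.4, chromosome 13, 58287502 to 58359122, minus strand) shares 334 exon bases with Gm26555, on the other strand, and the microRNA gene Mir6369, so part of its count is uncertain.

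Kif6, which mice need for the cilia of ependymal cells and without which they develop hydrocephalus, did not pass over all 7 libraries. It had 2.80, 42.0 and 30.0 CPM in IP 1, IP 3 and IP 4, against 2.77, 1.77, 3.82 and 5.62 CPM in Inputs 1 to 4. IP 1 lay within the Input range, while IP 3 and IP 4 were far above it. The log2 fold was 2.83 ± 0.75 (SE; adjusted p = 0.057 in edgeR). Without IP 1 Kif6 was called, at 3.36 ± 0.42 (SE; adjusted p = 4.67e-05 in edgeR), and DESeq2 called it over all libraries (adjusted p = 0.00189). Kif6 (ENSMUSG00000023999.14, chromosome 17, 49615136 to 49909847, plus strand) shares 62 exon bases with Gm16554 on the other strand.

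**Figure D1:**
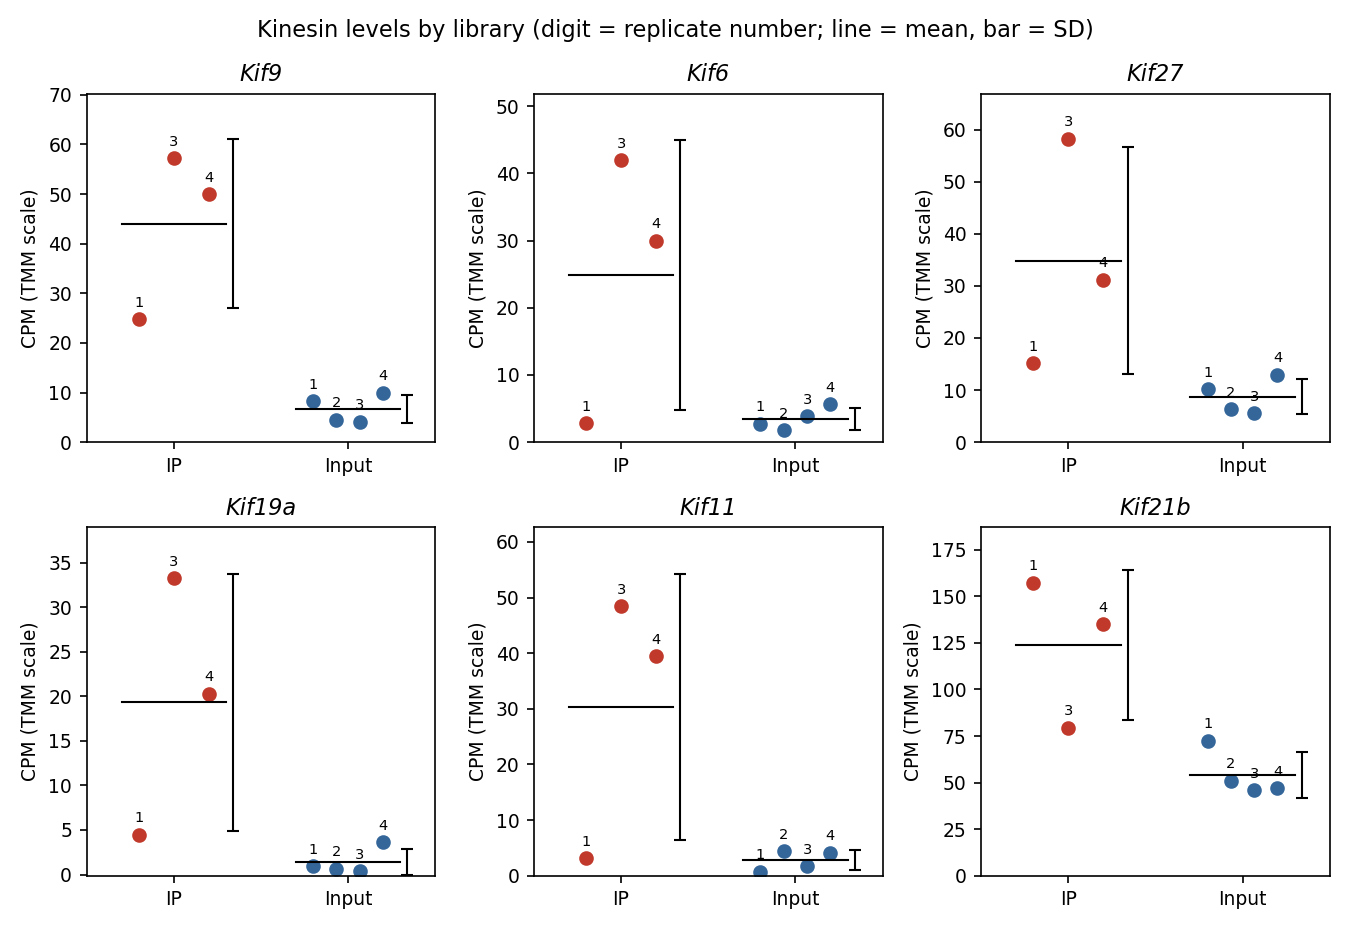
CPM on the TMM scale (y) of Kif9, Kif6, Kif27, Kif19a, Kif11 and Kif21b in IP (n = 3) and Input (n = 4), 1 point per library with its replicate number, beside the group mean and SD. In the first 5 genes IP 1 is the lowest IP, at 2.80 CPM for Kif6 and 24.8 CPM for Kif9, while in Kif21b it is the highest, at 157 CPM.

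The 4 motile cilium genes did not keep one ratio to each other across the IP libraries. For IP 1 over Input 1, which share lane number 4 in the labels, the log2 ratios were 2.20 for Kif19a, 1.58 for Kif9, 0.58 for Kif27 and 0.02 for Kif6. For IP 3 over Input 3, of lane 2, the log2 ratios were 6.38 for Kif19a, 3.79 for Kif9, 3.37 for Kif27 and 3.44 for Kif6. For IP 4 over Input 4, of lane 3, the log2 ratios were 2.48 for Kif19a, 2.32 for Kif9, 1.27 for Kif27 and 2.41 for Kif6. All 12 ratios were above 0, and the highest for each gene was that of lane 2. Each ratio also carries the scatter of its single Input, and Input 4 was the highest Input in all 4 genes. Over the mean log2 level of the Inputs, Kif19a had log2 ratios of 2.16, 5.05 and 4.34 in IP 1, IP 3 and IP 4. Those of Kif9 were 1.98, 3.18 and 2.99, of Kif27 0.87, 2.81 and 1.91, and of Kif6 -0.19, 3.69 and 3.21. The summed level of 8 markers of mural cells and fibroblasts was also highest in IP 3, with 96.0, 1304 and 648 CPM in IP 1, IP 3 and IP 4, against 35.2 to 86.9 CPM in the Inputs. None of these 8 markers was at 0 in any library, and 6 were called higher, against 3.64% of all tested genes. The sum of the ependymal markers was highest in IP 3 too, at 3064 CPM. So was that of 5 endothelial markers, with 4.73, 17.1 and 10.4 CPM in IP 1, IP 3 and IP 4, against 5.04 to 6.74 CPM in the Inputs. The part of any of these cell types in the kinesin values was not tested.

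**Figure D2:**
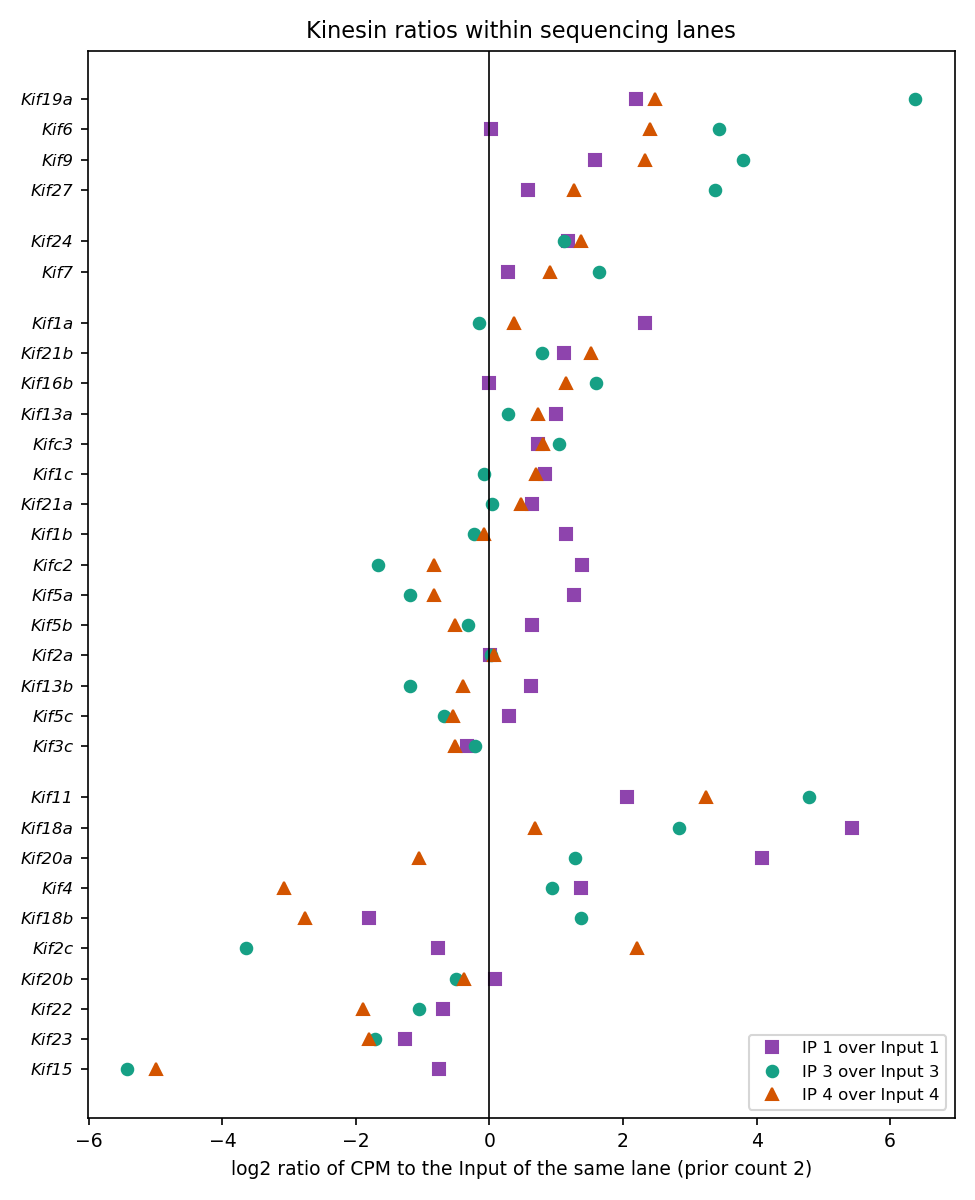
Log2 ratio of each IP to the Input of its own lane number (log2 CPM with a prior count of 2) for tested kinesins, 1 mark per IP library. IP 1 is the lowest of the 3 in Kif6 (0.02) and Kif27 (0.58) and the highest in Kif1a (2.32) and Kif5a (1.27).

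Both kinesins of the primary cilium and centriole were low and neither passed in edgeR, with or without adjustment, or in DESeq2. Kif24, a centriolar microtubule depolymerase that holds back cilium formation, had 1.72, 7.75 and 8.15 CPM in IP 1, IP 3 and IP 4, against 0.736, 2.24, 3.55 and 3.12 CPM in Inputs 1 to 4. IP 1 lay among the Inputs and the other IP libraries above them (log2 fold 1.29 ± 0.73 SE; adjusted p = 0.334 in edgeR). Kif7, which acts at the tip of the primary cilium in Hedgehog signalling, ranged from 0.352 to 1.29 CPM in IP and from 0.0819 to 0.663 CPM in Input (log2 fold 1.11 ± 1.18 SE; adjusted p = 0.645 in edgeR). Kif7 shares 928 exon bases with 9330171B17Rik and Ticrr on the other strand.

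Partners of these motors were described by count. Of 7 partners of Kif7 and Kif27, 2 were higher and 0 lower in IP, against 3.64% and 2.16% of all tested genes. All 7 had a positive log2 fold (median 0.93), as did 9224 of all 17375 tested genes (median 0.06). With unadjusted p 5 of the 7 were higher, against 13.3% of all genes, and DESeq2 called 4 higher, against 8.71%. Limma-voom called 0 of them higher and 75 over all genes. Without IP 1 edgeR called 3 higher (Stk36, Gli2 and Smo), against 12.5% of all genes. Stk36, the kinase that binds Kif27, had 12.4, 9.05 and 18.5 CPM in IP 1, IP 3 and IP 4, against 3.19, 3.93, 3.11 and 1.62 CPM in Inputs 1 to 4. All IP libraries were above all Inputs, and here IP 1 was not the lowest IP. Its log2 fold was 2.17 ± 0.46 (SE; adjusted p = 0.0282 in edgeR), and the block ended the call (adjusted p = 0.146 in edgeR). Gli2, a transcription factor of the Hedgehog pathway, had 11.6, 18.2 and 14.1 CPM in IP 1, IP 3 and IP 4, against 4.51, 5.01, 2.70 and 5.72 CPM in Inputs 1 to 4. Its groups did not overlap either (log2 fold 1.71 ± 0.40 SE; adjusted p = 0.038 in edgeR), and the block ended this call too (adjusted p = 0.173 in edgeR).

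Of 5 partners of Kif24, 0 passed in edgeR and in DESeq2 (median log2 fold -0.38). With unadjusted p 1 was lower, against 9.4% of all genes. Those with the smallest p were Cep97, a centriole cap protein, with a log2 fold of -0.55 (adjusted p = 0.169 in edgeR) and Nek2, a centrosomal kinase, with 1.49 (adjusted p = 0.308 in edgeR). Without IP 1 Ttbk2, a kinase that starts the building of cilia, was lower at -0.85 (adjusted p = 0.000795 in edgeR).

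The 15 transport kinesins held most of the family's RNA. Summed per kilobase of exon, they made up 98.8%, 89.0% and 93.4% of kinesin CPM in IP 1, IP 3 and IP 4, against 98.3% to 99.1% in the Inputs. The motile cilium genes made up 0.734%, 8.74% and 4.98% in IP 1, IP 3 and IP 4, against 0.414% to 1.0% in the Inputs. Among all members ranked by CPM per kilobase, Kif9 stood at place 13 in IP 1, 9 in IP 3 and 10 in IP 4, against places 14 to 17 in the Inputs. Kif5a, a neuronal heavy chain of kinesin-1, had the highest mean level in both groups, with 424, 85.6 and 123 CPM per kb in IP 1, IP 3 and IP 4, against 171 to 218 CPM per kb in the Inputs. Kif1a, a carrier of synaptic vesicle precursors, had 399, 63.6 and 92.0 CPM per kb in IP 1, IP 3 and IP 4, against 71.2 to 92.3 CPM per kb in the Inputs. In both genes IP 1 alone was above the Inputs. Kif5c, another neuronal heavy chain, had 152, 84.4 and 99.6 CPM per kb in IP 1, IP 3 and IP 4, against 124 to 154 CPM per kb in the Inputs.

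**Figure D3:**
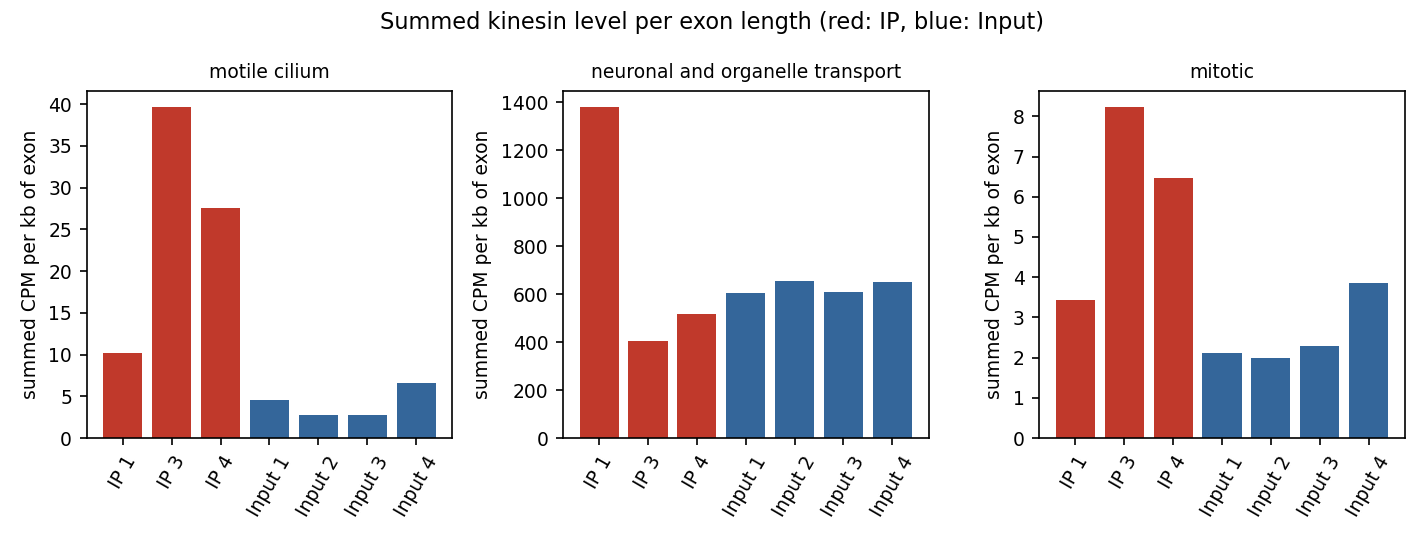
Summed CPM per kilobase of exon (y) of kinesins by role in each IP and Input library. Motile cilium kinesins reach 39.6 and 27.6 in IP 3 and IP 4, against 6.61 in the highest Input, while transport kinesins reach 1379 in IP 1 and lie at 404 and 518 in IP 3 and IP 4.

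Of the transport kinesins 1 was called higher and 0 lower (median log2 fold 0.33), against 3.64% and 2.16% of all tested genes. With unadjusted p 4 of the 15 were higher and 1 was lower, against 13.3% and 9.4% of all genes. DESeq2 called 2 higher and 0 lower, against 8.71% and 6.34% of all genes. Without IP 1, 2 of the 15 were higher, against 12.5% of all genes, and 4 were lower, against 9.55%. Their median was then -0.02. In 11 of the 15, IP 1 was the highest of all 7 libraries, as it was in 21.6% of all tested genes. Both IP 3 and IP 4 were below every Input in 7 of the 15 (21.5% of all tested genes) and above every Input in 3 of the 15, Kif13a, Kif16b and Kif21b (22.2% of all tested genes).

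Kif1a had 3724, 593 and 859 CPM in IP 1, IP 3 and IP 4, against 744, 861, 664 and 669 CPM in Inputs 1 to 4. IP 1 was far above all other libraries, which overlapped (log2 fold 1.23 ± 0.54 SE; adjusted p = 0.214 in edgeR). Without IP 1 the log2 fold was -0.02 (adjusted p = 0.957 in edgeR). Kif1b, a carrier of mitochondria and vesicle precursors, had 2237, 823 and 920 CPM in IP 1, IP 3 and IP 4, against 1009, 1270, 968 and 976 CPM in Inputs 1 to 4. IP 1 was again the highest, and the other IP libraries were the lowest of the 7 (log2 fold 0.33 ± 0.32 SE; adjusted p = 0.609 in edgeR).

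Kif5a had 2960, 598 and 858 CPM in IP 1, IP 3 and IP 4, against 1229, 1196, 1371 and 1523 CPM in Inputs 1 to 4. IP 1 was above and the other IP libraries below all Inputs. The log2 fold of 0.15 (adjusted p = 0.893 in edgeR) became -0.87 ± 0.17 without IP 1 (SE; adjusted p = 0.00182 in edgeR). Kifc2, a neuronal motor of the minus-end family, showed the same order, with 360, 43.0 and 79.5 CPM in IP 1, IP 3 and IP 4, against 137, 140, 138 and 142 CPM in Inputs 1 to 4. Its log2 fold of 0.21 (adjusted p = 0.879 in edgeR) became -1.19 ± 0.22 without IP 1 (SE; adjusted p = 0.00155 in edgeR). Its Inputs lay within 5 CPM of each other.

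Kif5c had 1088, 603 and 712 CPM in IP 1, IP 3 and IP 4, against 887, 1097, 966 and 1035 CPM in Inputs 1 to 4. Kif3c, a neuronal relative of the intraflagellar motors, had 157, 132 and 130 CPM in IP 1, IP 3 and IP 4, against 198, 209, 153 and 186 CPM in Inputs 1 to 4. In both genes IP 1 lay within the Input range and the other IP libraries below it. Both were lower without IP 1, at -0.60 for Kif5c (adjusted p = 0.0081 in edgeR) and -0.51 for Kif3c (adjusted p = 0.0422 in edgeR), but not with it. Kif3c shares 3016 exon bases with other gene models.

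Neuron markers were mixed. In 5 of 10 (Nefl, Nefm, Tubb3, Syn1 and Gad1) IP 1 was the highest of all 7 libraries, as in most transport kinesins, and in the other 5 it was not. The neurofilament gene Nefl had 532, 224 and 249 CPM in IP 1, IP 3 and IP 4, against 173 to 202 CPM in the Inputs. The synaptic gene Snap25 had 6026, 6178 and 4683 CPM in IP 1, IP 3 and IP 4, against 6993 to 9241 CPM in the Inputs, and made up most of the summed level of the 10. That sum was 8767, 8272 and 7145 CPM in IP 1, IP 3 and IP 4, against 9415 to 12173 CPM in the Inputs. Without Snap25 it was 2741, 2094 and 2462 CPM in IP 1, IP 3 and IP 4, against 2423 to 2932 CPM in the Inputs, so IP 1 then lay within the Input range. None of the 10 was at 0 in any library and 0 were called in edgeR. With unadjusted p 2 were higher and 2 lower, against 13.3% and 9.4% of all genes. DESeq2 called 1 lower, against 6.34% of all genes. The part of neuronal RNA in the transport kinesins was not tested.

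Kif21b, a neuronal motor that paces microtubule growth, had 157, 79.4 and 135 CPM in IP 1, IP 3 and IP 4, against 72.4, 50.9, 45.9 and 46.9 CPM in Inputs 1 to 4. All IP libraries were above all Inputs, IP 3 by little. The log2 fold was 1.2 ± 0.27 (SE; adjusted p = 0.0347 in edgeR). Without IP 1 it was 0.99 (adjusted p = 0.00899 in edgeR), and the block gave 1.15 and ended the call (adjusted p = 0.11 in edgeR). Without IP 4 or any 1 Input it was lost as well (adjusted p = 0.0665 to 0.122 in edgeR), while without IP 3 it held (adjusted p = 0.0225 in edgeR). Kif21b (ENSMUSG00000041642.18, chromosome 1, 136131389 to 136177998, plus strand) shares no exon base with another gene.

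Kif13a, which carries endosomes, had 86.9, 47.5 and 66.4 CPM in IP 1, IP 3 and IP 4, against 43.5, 34.8, 39.0 and 40.1 CPM in Inputs 1 to 4. The groups did not overlap, but the log2 fold of 0.77 ± 0.24 did not pass (SE; adjusted p = 0.0962 in edgeR). Kif13a did pass in DESeq2 (adjusted p = 0.0443) and in edgeR without IP 3 (log2 fold 0.95; adjusted p = 0.0486). Kif16b, a motor of early endosomes, had 13.5, 24.8 and 39.9 CPM in IP 1, IP 3 and IP 4, against 13.5, 12.7, 8.14 and 18.0 CPM in Inputs 1 to 4. IP 1 lay within the Inputs, and Kif16b passed without IP 1 (log2 fold 1.30 ± 0.34 SE; adjusted p = 0.0131 in edgeR) but not with it (0.99; adjusted p = 0.179 in edgeR).

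Kif2a was listed with the transport kinesins here, although it is a microtubule depolymerase. Its level was nearly the same in all libraries (log2 fold 0.02 ± 0.17 SE). It had 96.9, 94.0 and 99.8 CPM in IP 1, IP 3 and IP 4, against 96.7, 97.4, 92.4 and 95.4 CPM in Inputs 1 to 4. It shares 1229 exon bases with Dimt1 on the other strand. The remaining transport members (Kif1c, Kif5b, Kif13b, Kif21a and Kifc3) had log2 folds from -0.04 to 0.67 and did not pass. Of these Kif13b had the lowest IP 3 and IP 4 relative to Input, with 36.9, 9.47 and 11.6 CPM in IP 1, IP 3 and IP 4, against 15.2 to 23.9 CPM in the Inputs.

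**Figure D4:**
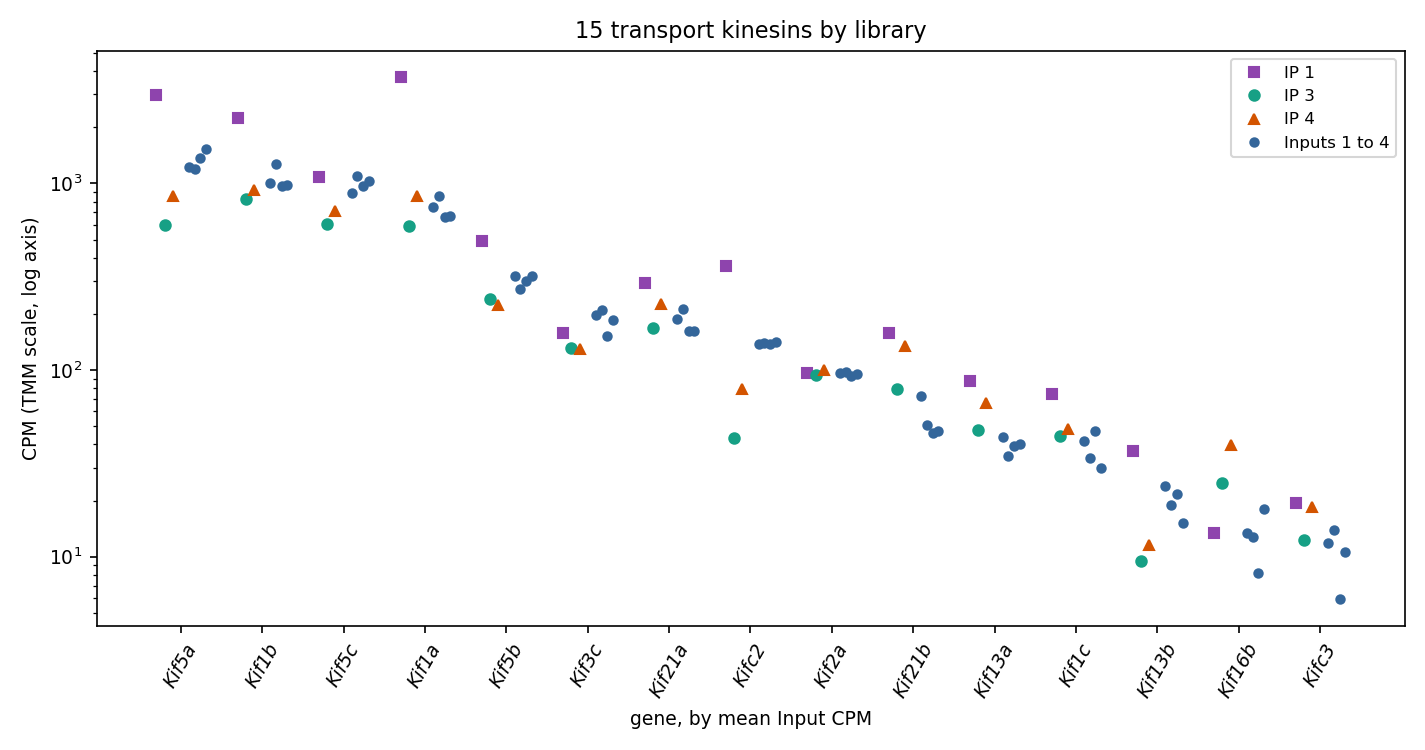
CPM on the TMM scale (log axis) of the 15 transport kinesins, with 1 mark per IP library beside the 4 Inputs. IP 1 is the highest library in 11 genes, as in Kif1a at 3724 CPM and Kifc2 at 360 CPM, and all 7 libraries of Kif2a lie between 92.4 and 99.8 CPM.

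The 13 light chains and cargo adaptors of kinesin-1 gave 0 calls in edgeR and in DESeq2 over all libraries (median log2 fold 0.00). With unadjusted p 0 were higher and 1 was lower, against 13.3% and 9.4% of all genes. Without IP 1, 2 of the 13 were lower, where 9.55% of all genes were. They were the mitochondrial adaptor Trak2 at -0.73 (adjusted p = 0.00464 in edgeR) and Jakmip2 at -0.73 (adjusted p = 0.0396 in edgeR). Over all libraries the smallest p were those of the microtubule-binding Jakmip2, at -0.60 (adjusted p = 0.177 in edgeR), and the mitochondrial adaptor Trak1, at 0.55 (adjusted p = 0.295 in edgeR). Their summed level was highest in IP 1, with 2476, 1130 and 1421 CPM in IP 1, IP 3 and IP 4, against 1379 to 1590 CPM in the Inputs.

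Mitotic kinesins other than Kif11 were scarce. Of the whole mitotic group, 0 of 10 tested passed in edgeR (median log2 fold -0.10), against 3.64% of all tested genes higher and 2.16% lower. With unadjusted p 1 was higher (Kif11) and 1 lower (Kif15), and DESeq2 called the same pair. Over all genes, unadjusted p gave 13.3% higher and 9.4% lower, and DESeq2 gave 8.71% and 6.34%. Kif11, the motor that pushes spindle poles apart, had 3.12, 48.4 and 39.4 CPM in IP 1, IP 3 and IP 4, against 0.711, 4.36, 1.72 and 4.13 CPM in Inputs 1 to 4. IP 1 lay within the Inputs and the other IP libraries far above them, as in Kif6. The log2 fold was 3.47 ± 0.89 (SE; adjusted p = 0.0536 in edgeR). Without IP 1 it was 4.0 ± 0.54 (SE; adjusted p = 0.000156 in edgeR), and DESeq2 called it over all libraries (adjusted p = 0.000387). Kif11 (ENSMUSG00000012443.4, chromosome 19, 37376403 to 37421859, plus strand) shares no exon base with another gene.

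Kif15, a motor that works beside Kif11 on the spindle, had 0.621, 0.0220 and 0.176 CPM in IP 1, IP 3 and IP 4, against 1.08, 3.11, 2.84 and 7.0 CPM in Inputs 1 to 4. These are 31, 1 and 9 counts in IP 1, IP 3 and IP 4, against 44, 139, 104 and 285 counts in Inputs 1 to 4. All IP libraries were below all Inputs. The log2 fold of -3.67 ± 1.19 did not pass (SE; adjusted p = 0.102 in edgeR), while without IP 1 it was -5.09 and passed (adjusted p = 0.0108 in edgeR), as in DESeq2 over all libraries (adjusted p = 0.00306). Kif15 (ENSMUSG00000036768.6, chromosome 9, 122951046 to 123018733, plus strand) shares no exon base with another gene.

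Kif22, a motor that binds chromosome arms, had 2.20, 1.94 and 1.37 CPM in IP 1, IP 3 and IP 4, against 3.58, 3.26, 4.07 and 5.18 CPM in Inputs 1 to 4. It too was below every Input (log2 fold -1.13 ± 0.59 SE; adjusted p = 0.294 in edgeR). Kif18a, which aligns chromosomes, was above every Input, with 2.96, 4.56 and 3.06 CPM in IP 1, IP 3 and IP 4, against 0.0245, 0.894, 0.601 and 1.89 CPM in Inputs 1 to 4. Its log2 fold of 2.04 ± 1.06 did not pass (SE; adjusted p = 0.286 in edgeR). The other tested members (Kif2c, Kif4, Kif18b, Kif20a, Kif20b and Kif23) had means of at most 1.63 CPM in IP and 2.50 CPM in Input, and their groups overlapped. Kif20a shares 1271 exon bases with Cdc23, Kif4 shares 832 with Pdzd11, Kif22 shares 96 with Gm31749 and Kif18a shares 11 with Mettl15, each on the other strand.

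**Figure D5:**
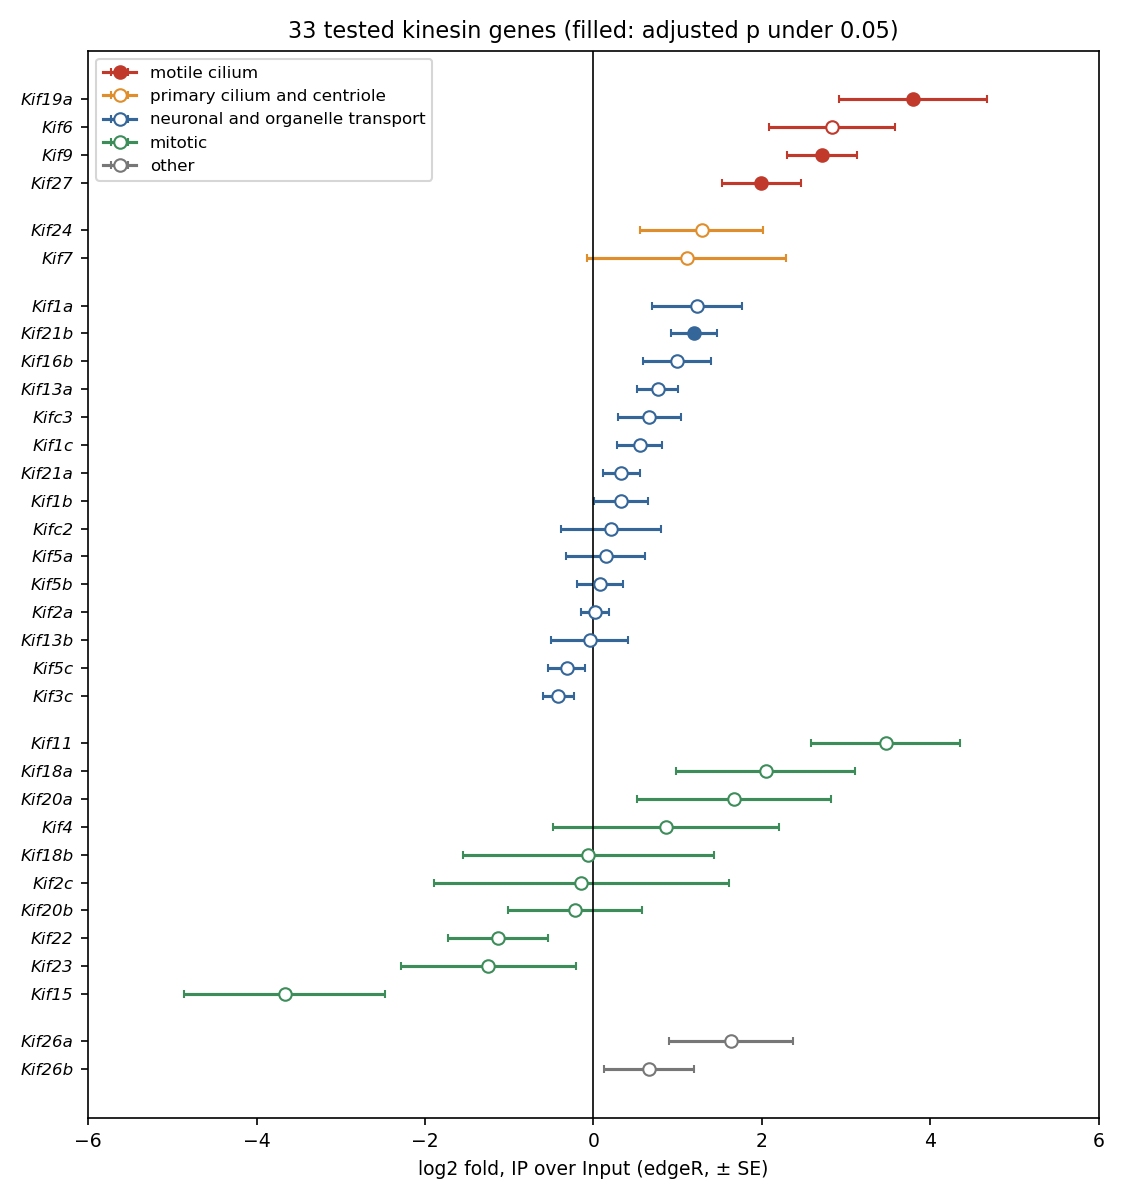
Log2 fold of IP over Input with its SE for the 33 tested kinesins by role, from edgeR over all 7 libraries. The members called are Kif19a at 3.79, Kif9 at 2.71, Kif27 at 1.99 and Kif21b at 1.2, and Kif11 at 3.47 has the highest fold among the mitotic members.

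Genes of cycling cells were also scarce. Of 13 such genes 0 passed in edgeR and in DESeq2 (median log2 fold -0.24). With unadjusted p 0 were higher and 2 lower, against 13.3% and 9.4% of all genes. Their summed level was 22.5, 26.2 and 16.2 CPM in IP 1, IP 3 and IP 4, against 23.0 to 30.6 CPM in the Inputs, and 4 of them were at 0 in some library. Those with the smallest p were the proliferation marker Mki67, at -1.77 (adjusted p = 0.176 in edgeR), and the checkpoint kinase Bub1, at -4.03 (adjusted p = 0.184 in edgeR).

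Of the 5 other members 2 were tested. Kif26a, an atypical kinesin that mice need for the enteric nervous system, had 3.62, 3.02 and 2.54 CPM in IP 1, IP 3 and IP 4, against 1.40, 1.1, 0.683 and 0.761 CPM in Inputs 1 to 4. The groups did not overlap, but the log2 fold of 1.63 ± 0.73 did not pass (SE; adjusted p = 0.217 in edgeR), while it did in DESeq2 (adjusted p = 0.0209). Kif26b, its paralogue, had 26.5, 5.09 and 9.05 CPM in IP 1, IP 3 and IP 4, against 6.19 to 11.1 CPM in the Inputs, again highest in IP 1. It shares 909 exon bases with Gm16564.

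The 5 members below the filter were Kif12, Kif2b and the pseudogene Kif4-ps, and the mitotic Kifc1 and Kif14. Kif14, a motor of cytokinesis, had 106, 48 and 1 counts in IP 1, IP 3 and IP 4, against 7, 8, 8 and 0 counts in Inputs 1 to 4. Kifc1, a spindle motor towards the minus end, had 17 counts in IP 1, 0 in the other IP libraries and 1 in Input 3 alone among the Inputs. Kif12 had 0 counts in all IP libraries and 3 and 1 in Inputs 1 and 3, Kif2b had 1 count in Input 3, and Kif4-ps had 0 throughout. A count of 0 in a library allows up to 3 counts, or 0.0585 to 0.0819 CPM, counting error only.

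The 3 motors left out of the family here, of intraflagellar transport and related traffic, gave 0 calls in edgeR and in DESeq2. With unadjusted p 1 was higher, against 13.3% of all genes. That one was Kif3b, with 110, 111 and 108 CPM in IP 1, IP 3 and IP 4, against 88.7, 79.1, 84.2 and 76.9 CPM in Inputs 1 to 4 (log2 fold 0.42 ± 0.17 SE; adjusted p = 0.179 in edgeR). Kif3a averaged 261 ± 96.1 CPM in IP and 251 ± 28.4 CPM in Input, and Kif17 averaged 19.7 ± 16.8 CPM in IP and 21.8 ± 7.37 CPM in Input (SD, n = 3 and 4).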

How the data were processed

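RNA of 3 IP and 4 Input libraries was sequenced. The authors deposited whole-number counts per gene symbol, without normalisation. STAR 2.0.0e, HTSeq and mm10 are named per the submitters' processing notes. No annotation, strand setting or kit is named in these sources: reads of antisense or overlapping genes cannot be told apart, which touches the 14 members that share exon bases with another GENCODE M21 gene. Lines that name no gene held 40.1% to 52.1% of the reads listed per library and stayed out.

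Genes passing filterByExpr (minimum count 10, minimum total 15) were tested with edgeR 4.0.16 (R 4.3.3; TMM, robust quasi-likelihood fit, group as the sole term, all 7 libraries). SEs are the log2 fold over the root of the F statistic. The code was tested on simulated data. Alternatives used RLE or total-count scaling, no filter or a stricter one, DESeq2 1.42.0, limma-voom 3.58.1, a replicate block, and each library left out.

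The labels give IP and Input of numbers 1, 3 and 4 the same lane numbers (4, 2 and 3), so the block is given where it changes a call. Deviations of same-numbered libraries correlated at 0.0258 to 0.0426 across genes, against -0.0391 to 0.0119 for the other pairs of IP and Input. The same-numbered pairs were thus the highest, though all values were small. No label says that libraries are separate animals, so p-values measure the spread between libraries, which may be technical. Library pairs within a group all differed by more than sampling noise.

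Members, roles and lists were chosen with earlier results of these data known. Values per library were given for Kif9, Kif6, Kif27, each member that passed or whose groups did not overlap, and up to 3 of a role by mean CPM; partner lists have counts, the called genes and the 2 with smallest p. Other genes given with values, and the search for the X-box arm, were chosen after their values were seen. Kifc5b was not used, since the choice of symbols leaves it out. Lengths and coordinates are GENCODE's on GRCm38 (all 38 members matched by symbol), and promoter sequences are RefSeq's. Protein sequences were not used here.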

Additional observations from a re-analysis of the deposited data

Results flagged for a closer look

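Kif1b in Input 2 stood out because it lay far from the other Inputs, at 1270 CPM against 968 to 1009 CPM in the other 3. It was the only 1 of 34 members to do so, where chance alone sets apart about 1 in 20 groups.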

How the results depend on the processing

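RLE scaling, total counts, no low-count filter and the filter at 1 CPM in 3 libraries kept every kinesin call. DESeq2 called 8 members higher and 1 lower, and limma-voom 1 and 0, against 4 and 0; over all genes DESeq2 called 1589 and 1156 and limma-voom 75 and 189, against 633 and 376. With the replicate block 0 kinesins were higher and 0 lower, and over all genes 96 and 33. Of the motile cilium group 1 was higher by limma-voom and 0 with the block, against 3. Of the transport group 2 were higher by DESeq2, 0 by limma-voom and 0 with the block, against 1. Of the mitotic group DESeq2 called 1 higher and 1 lower, and its median log2 fold was -0.61 with the block. Leaving out each library in turn gave 0 to 7 kinesins higher and 0 to 5 lower, and 4 to 2259 genes higher and 16 to 1724 lower over all. It gave 0 to 4 motile cilium, 0 to 2 transport and 0 to 1 mitotic members higher, and 0 to 4 transport and 0 to 1 mitotic members lower. Group medians ran from 2.35 to 3.18 (motile cilium), 0.74 to 1.51 (primary cilium), -0.02 to 0.56 (transport) and -0.44 to 0.82 (mitotic). The highest counts came without IP 1, where Kif5a and Kifc2 reversed; leaving out each library gave -0.87 to 0.50 for Kif5a and -1.19 to 0.64 for Kifc2. Without IP 4 or any 1 Input no kinesin was called higher, and Kif9 had an edgeR adjusted p of 0.0513 to 0.0584; without IP 3 Kif9 and Kif21b stayed and Kif13a was added. The cause of these changes was not tested. Members under about 1 CPM rest on few counts, and their folds have SEs above 1.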
